A study of Homo sapiens with 4 samples.

Results

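The glycolysis and lactate handling genes described here are 34 genes fixed by name. They cover glucose uptake, each step from hexokinase to pyruvate kinase, lactate dehydrogenase and lactate transport, the pyruvate dehydrogenase gate, and 4 genes used as markers of low oxygen. All 34 were found among the 20263 genes of the count table by their Ensembl identifiers. MDA-MB-231, an established human triple-negative breast cancer line, was grown in serum-containing DMEM and exposed for 24 h to DMSO, the solvent, or to Rib_CA, which the series title presents as derived from the CDK4/6 inhibitor ribociclib. Each group has 2 libraries of mRNA, and the dose is not given in the sources used here. The sources do not tell separate cultures from repeat libraries of 1 culture, and the p-values reflect the spread of these 4 libraries, which may be technical.

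Glycolysis splits glucose into pyruvate in the cytosol. Tumour cells commonly turn much of that pyruvate into lactate and export it, even with oxygen present. Flow is set largely at hexokinase, phosphofructokinase and pyruvate kinase, while pyruvate dehydrogenase kinases close the way into the mitochondrion. The transcription factor HIF-1 induces many of these genes when oxygen is low, and MYC does so in growing cells.

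The libraries held 34774542 to 38865103 counts. The members took 1.41 to 1.52% of all counts in DMSO and 1.92 to 1.96% in Rib_CA. Mitochondrially encoded transcripts took 8.68 and 21.7% of counts in DMSO 1 and 2, and 5.78 and 3.13% in Rib_CA 1 and 2. A share given before scaling therefore moves with the mitochondrial share, and its part in the members' share was not tested. Levels below are CPM, counts per 1000000 counts of a library after TMM scaling, which sets libraries to a common level over most genes. The 8 markers fixed for this mesenchymal line were all tested and summed to 9078 to 12140 CPM per library. The 8 luminal or HER2 markers summed to 254.5 to 448.7 CPM, most of it KRT18, a simple-epithelium keratin, at 180.3 to 335.6 CPM and ERBB2, the HER2 gene, at 57.97 to 87.14. EPCAM lay at 9.50 to 12.15 CPM and GATA3 at 3.04 to 21.7, while ESR1, the oestrogen receptor gene, lay at 0.102 to 0.663 CPM and CDH1, the E-cadherin gene, at 0 to 0.0766. The 5 leukocyte markers summed to 0.817 to 1.21 CPM, with CD14, a monocyte gene, at 18, 17, 24 and 32 counts, PTPRC, the CD45 gene, at 22, 13, 6 and 2 counts in DMSO 1, DMSO 2, Rib_CA 1 and Rib_CA 2, and CD3E, a T cell marker, at 0 in each. In bulk RNA, fewer cells and less RNA per cell cannot be told apart.

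No member passed the test of Rib_CA against DMSO. Of 33 members tested, 0 were called by edgeR's quasi-likelihood test at an adjusted p under 0.05, where 7.13% of the 13667 genes tested were called, 2.01% as higher and 5.11% as lower in Rib_CA. At an unadjusted p under 0.05, 4 members were higher (12.1%, against 13.7% of all genes) and 1 was lower (3.03%, against 14.7%). With the same filter, limma-voom called 0 members, against 6.45% of all genes. DESeq2 called 3 (9.09%), SLC16A3 and ENO1 as higher and LDHB as lower, against 18.7% of the 13667 genes, of which 795 had no adjusted p. The members' median log2 fold change was 0.26, against 0.03 over all genes tested. Of the 33, 24 had a positive fold change (72.7%, against 51.9% of all genes), and 21 after correction for transcript GC content and length (63.6%, against 51.8%). Both Rib_CA libraries lay above both DMSO libraries for 17 members (51.5%, against 30.4% of all genes) and below them for 5 (15.2%, against 28.4%). The 95% interval of the log2 fold change stayed within 2-fold either way for 12 of the 33. It reached 2-fold higher for 16 and 2-fold lower for 6, so a change of that size was not resolved for these. CA9, the carbonic anhydrase gene that HIF-1 induces strongly, had 6, 0, 0 and 35 counts in DMSO 1, DMSO 2, Rib_CA 1 and Rib_CA 2 and was left out of the test by the filter on low counts.

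**Figure D1:**
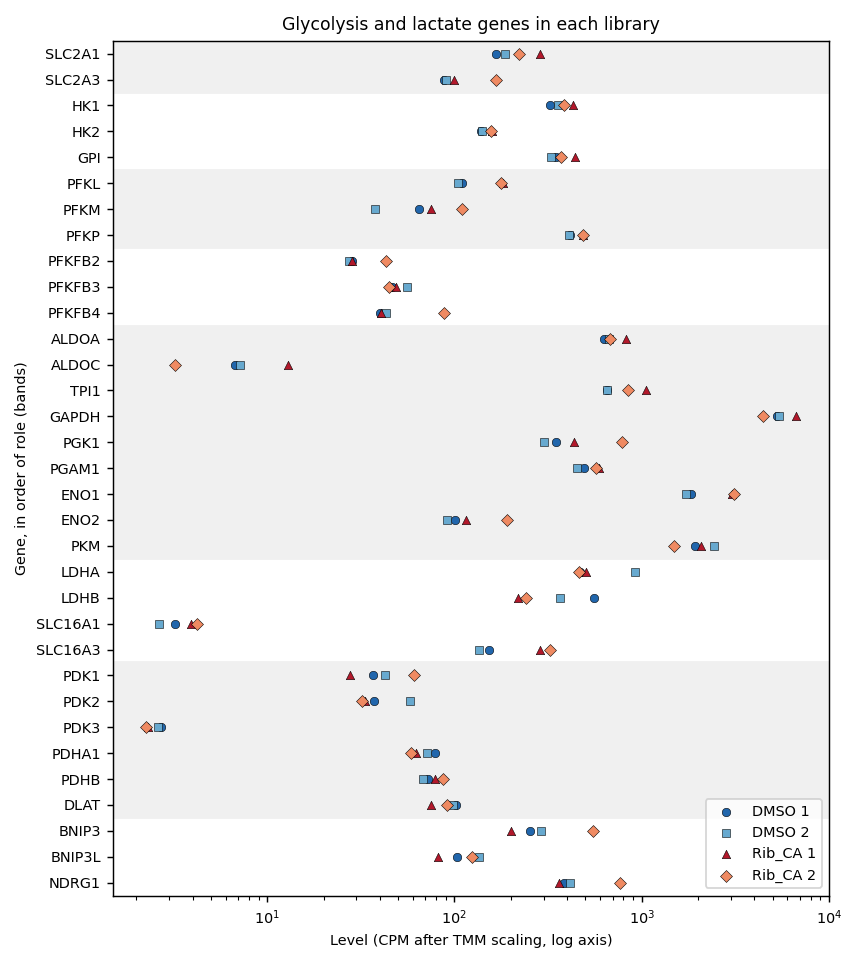
Level of each tested member (CPM after TMM scaling, log axis) in the 4 libraries, 1 marker per library, with bands separating the roles. SLC16A3, PFKL and ENO1 show both Rib_CA markers to the right of both DMSO markers, LDHB shows the reverse, and BNIP3, NDRG1, PFKFB4 and PDK1 show Rib_CA 2 alone to the right.

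Levels per length, as CPM divided by the longest annotated transcript in kilobases, spanned from GAPDH at 2847 CPM per kb in DMSO down to PDK3 at 0.564 among tested members. PKM (727 CPM per kb) and ENO1 (698) followed GAPDH, then TPI1 (371.5), LDHB, LDHA (286.8), PGAM1 (257.9) and ALDOA (255.7). The last 4 of these differed by less than the spread of LDHA and LDHB between the DMSO libraries. In Rib_CA, ENO1 (1208 CPM per kb) lay above PKM (588.5) on this scale, and LDHA (200.4) above LDHB (149.2). This is an order of levels, and the longest transcript need not be the one expressed.

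Glucose enters through transporters of the SLC2A family. SLC2A1, which encodes the widespread transporter GLUT1, lay at 165.8 and 187.4 CPM in DMSO and at 287.8 and 221.2 in Rib_CA. The groups did not overlap, and the log2 fold change was 0.53 ± 0.27 (SE; adjusted p = 0.252). For SLC2A1 it was 0.27 after correction for transcript GC content and length, and from 0.28 to 0.70 with 1 library left out. SLC2A3, which encodes the high-affinity transporter GLUT3, lay at 87.5 and 90.7 CPM in DMSO and at 99.4 and 166 in Rib_CA. Rib_CA 2 held most of that difference (log2 fold change 0.57 ± 0.31; adjusted p = 0.278). After the same correction the log2 fold change of SLC2A3 was 0.77. SLC2A1 made up 70.4% ± 1.27 (SD, n = 2) of the pair's length-scaled counts in DMSO and 69.6% ± 11.4 in Rib_CA, where the libraries lay at 77.7 and 61.6%.

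Hexokinase traps glucose as its phosphate, and GPI turns that phosphate into its fructose form. HK1, the constitutive isoform, was at 322.3 and 358.2 CPM in DMSO and at 431.9 and 385.7 in Rib_CA. HK2, the isoform often induced in tumours, was at 138.3 and 139.8 CPM in DMSO and at 158.7 and 156.8 in Rib_CA. The HK2 libraries of each group lay close together, and the log2 fold change of HK2 was 0.18, with a 95% interval from -0.40 to 0.76. GPI was at 346.8 and 327.5 CPM in DMSO and at 442.7 and 372.1 in Rib_CA. None of the 3 passed (adjusted p from 0.532 to 0.670). Each had its Rib_CA libraries above its DMSO libraries, as did 30.4% of all genes. The log2 fold changes of HK1 and GPI were 0.26 and 0.27. After correction for transcript GC content and length HK1 stood at 0.08, HK2 at 0.17 and GPI at 0.10. HK1 made up 77.9% ± 1.15 of the hexokinase pair in DMSO and 78.9% ± 1.19 in Rib_CA, a difference within the spread.

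Phosphofructokinase commits the sugar to glycolysis, and its 3 subunits are named for liver, muscle and platelet. PFKL was at 109.8 and 104.2 CPM in DMSO and at 181.2 and 176.5 in Rib_CA. Its libraries were close within each group and far apart between them, at a log2 fold change of 0.74 ± 0.24 (95% interval 0.16 to 1.32; unadjusted p = 0.020, adjusted p = 0.110). After correction for transcript GC content and length the log2 fold change of PFKL was 0.46 (edgeR adjusted p = 0.238). PFKM was at 64.8 and 37.5 CPM in DMSO and at 74.6 and 110 in Rib_CA (log2 fold change 0.85 ± 0.36; adjusted p = 0.180). With that correction the log2 fold change of PFKM was 0.69. PFKM shares 8.58% of its exonic bases with SENP1 on the opposite strand, and reads there were separable only if counting used strand. PFKP, the main subunit here, was at 415.4 and 408.1 CPM in DMSO and at 488.6 and 485.2 in Rib_CA. Its log2 fold change was 0.24, and it was -0.15 once each library had been corrected for transcript GC content and length. PFKP made up 82.3% ± 2.57 of the family's length-scaled counts in DMSO and 76.0% ± 2.20 in Rib_CA, while PFKL made up 9.85% ± 0.0705 and 12.9% ± 0.552. On plain counts PFKL made up 18.8% ± 0.248 in DMSO and 23.6% ± 1.04 in Rib_CA. Neither set of shares was corrected for GC content. With 2 libraries a group, an exact two-sided permutation test cannot give p below 0.333, so shares are described and not tested.

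The PFKFB enzymes make and remove the fructose bisphosphate that activates phosphofructokinase. PFKFB2 was at 28.4 and 27.2 CPM in DMSO and at 28.2 and 43.2 in Rib_CA. PFKFB3, the isoform with the highest kinase bias, was at 46.3 and 55.6 CPM in DMSO and at 49.0 and 44.6 in Rib_CA. PFKFB4 was at 40.1 and 43.0 CPM in DMSO, 40.3 in Rib_CA 1 and 87.7 in Rib_CA 2. Groups overlapped for all 3, and Rib_CA 1 stayed near the DMSO level for PFKFB2 and PFKFB4. The log2 fold change of PFKFB4 was 0.62 ± 0.40 (adjusted p = 0.347), and -0.045 without Rib_CA 2. That of PFKFB3 was -0.12, and 0.08 when libraries were scaled by total counts alone. PFKFB4 took 43.2% of the family's length-scaled counts in Rib_CA 1 and 60.5% in Rib_CA 2.

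**Figure D2:**
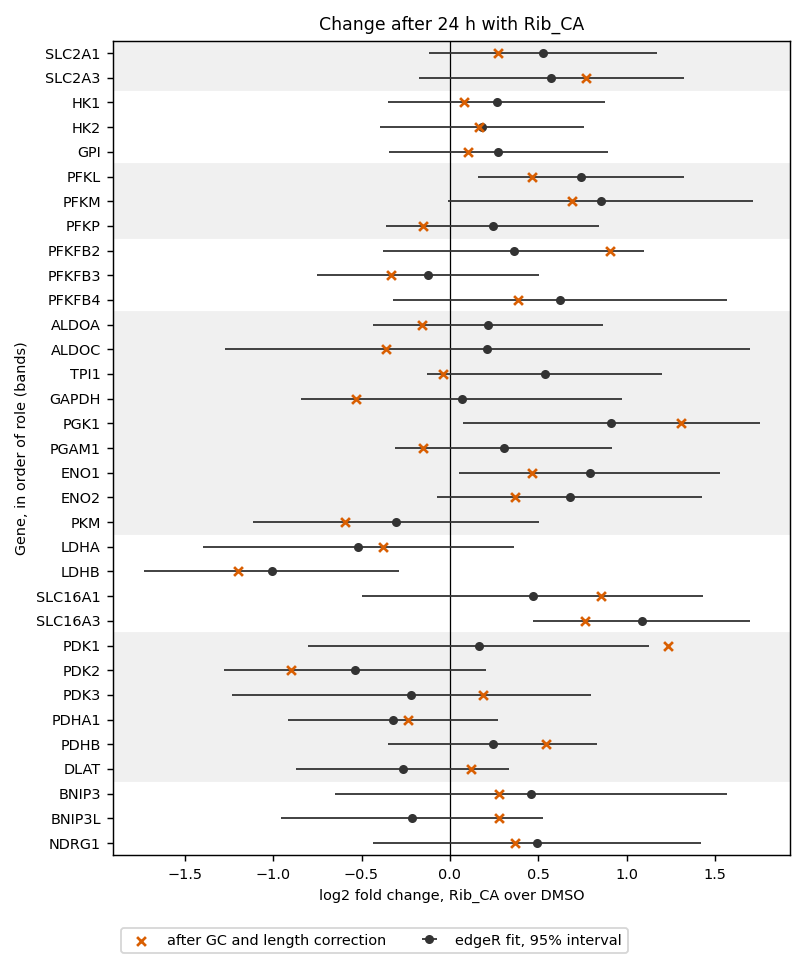
Log2 fold change of each tested member, Rib_CA over DMSO, as points with 95% intervals from the edgeR fit, and as crosses after correction for transcript GC content and length. SLC16A3 (1.09) and LDHB (-1.01) are the outermost points, and the crosses of GAPDH, ALDOA, ALDOC, PGAM1, PFKP and TPI1 lie below 0 where their points lie above it.

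The lower part of glycolysis had 8 of 9 positive fold changes (88.9%, against 51.9% of all genes) and no call. With the correction for GC content and length 3 of the 9 (PGK1, ENO1 and ENO2) were positive (33.3%, against 51.8%). ENO1, which encodes the main enolase, was at 1832 and 1725 CPM in DMSO and at 3028 and 3127 in Rib_CA. The log2 fold change was 0.79 ± 0.31 (95% interval 0.05 to 1.53; unadjusted p = 0.0391, adjusted p = 0.153), from 0.75 to 0.83 with 1 library left out and 0.47 after the GC and length correction. PGK1, which makes the first ATP of the pathway, was at 347.1 and 300.8 CPM in DMSO, 433.3 in Rib_CA 1 and 787.5 in Rib_CA 2. Both Rib_CA libraries were higher but differed 1.82-fold from each other (log2 fold change 0.91 ± 0.35; adjusted p = 0.149). Without Rib_CA 1 PGK1 passed (edgeR adjusted p = 0.00969), and without Rib_CA 2 its log2 fold change was 0.42. ENO2, the neuronal enolase, was at 100.4 and 90.8 CPM in DMSO and at 115.3 and 190.4 in Rib_CA, again with Rib_CA 2 highest (log2 fold change 0.68 ± 0.31; adjusted p = 0.214).

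TPI1, triose phosphate isomerase, was at 652.9 and 657 CPM in DMSO and at 1054 and 845.4 in Rib_CA (log2 fold change 0.54 ± 0.28; adjusted p = 0.256). After the GC and length correction its log2 fold change was -0.04. ALDOA, the main aldolase, was at 630.1 and 665.9 CPM in DMSO and at 828.4 and 675.2 in Rib_CA, and PGAM1, phosphoglycerate mutase, at 493.2 and 450.6 and at 593.4 and 571.9. The fit put ALDOA at a log2 fold change of 0.21 and PGAM1 at one of 0.30, which turned to -0.16 and -0.15 with the correction. The sign of these 3 genes therefore differed with and without that correction. ALDOC, the brain aldolase, was at 6.72 and 7.17 CPM in DMSO, 12.9 in Rib_CA 1 and 3.23 in Rib_CA 2, so the Rib_CA libraries lay on both sides of DMSO. ALDOC's fitted log2 fold change was 0.21 ± 0.62, from -1.15 to 0.89 with 1 library left out and -0.36 after the GC and length correction.

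GAPDH, often used as a reference transcript, was at 5255 and 5419 CPM in DMSO, 6712 in Rib_CA 1 and 4461 in Rib_CA 2. The Rib_CA libraries lay above and below DMSO, and the log2 fold change was 0.07 with a 95% interval from -0.84 to 0.98. It was -0.53 after the GC and length correction, which is 1.45-fold lower (adjusted p = 0.306). GAPDH alone took 0.473 to 0.677% of a library's counts. PKM, pyruvate kinase, was at 1939 and 2446 CPM in DMSO and at 2069 and 1481 in Rib_CA (log2 fold change -0.31 ± 0.34; adjusted p = 0.598). The groups overlapped for both genes. GENCODE lists 62 pseudogenes named for GAPDH, 13 for PGAM1, 39 for BNIP3 and 6 for LDHA, none of them in the count table. Reads that fit both a gene and such copies may have been dropped or assigned by a rule not given in the sources used here, so the levels of these genes are uncertain.

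In the edgeR fit the lactate genes SLC16A3 and LDHB held the highest and lowest log2 fold changes among tested members. With the GC and length correction PGK1 (1.31) and PDK1 (1.24) were highest and LDHB (-1.20) was still lowest. Without Rib_CA 1 PGK1 (1.24) lay above SLC16A3 (1.13) and ALDOC (-1.15) below LDHB (-0.97), and without DMSO 1 PFKM (1.30) was above SLC16A3 and LDHA (-0.93) below LDHB. In the fits without Rib_CA 1 or without a DMSO library, and in that with no filter on low counts, CA9 entered the test and was highest. CA9 had 6, 0, 0 and 35 counts in DMSO 1, DMSO 2, Rib_CA 1 and Rib_CA 2, so its value rests mostly on Rib_CA 2. Of its exonic bases, 38.5% overlap ARHGEF39 on the opposite strand. SLC16A3 encodes MCT4, the transporter that exports lactate from glycolytic cells. The gene spans chr17:82228397-82261129 on the plus strand (GRCh38, GENCODE). It was at 152.3 and 134.8 CPM in DMSO and at 285.8 and 323.6 in Rib_CA, so the groups were well apart. The log2 fold change was 1.09 ± 0.26 (95% interval 0.47 to 1.70; 2.12-fold), with an unadjusted p of 0.00435 and an adjusted p of 0.0543, just short of the threshold. Over its alternatives the adjusted p ran from 0.00220 with DESeq2 to 0.429 without DMSO 2. SLC16A3 passed in edgeR without a filter on low counts (0.0449), with a filter at 5 CPM (0.0423) and without mitochondrially encoded genes (0.0490). It did not pass with total counts alone (0.0519), limma-voom (0.0549), DESeq2's scaling in edgeR (0.0553) or the replicate block (0.1065). With 1 library left out its log2 fold change ran from 0.99 to 1.17. Its log2 fold change was 0.77 after the GC and length correction (adjusted p = 0.145). SLC16A3 shares 5.36% of its exonic bases with CSNK1D on the opposite strand. SLC16A1, which encodes the widespread lactate carrier MCT1, was low, at 3.23 and 2.64 CPM in DMSO and at 3.91 and 4.23 in Rib_CA (log2 fold change 0.47 ± 0.40; adjusted p = 0.486). SLC16A3 made up 97.8% ± 0.121 of the pair's length-scaled counts in DMSO and 98.5% ± 0.0454 in Rib_CA.

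Lactate dehydrogenase turns pyruvate into lactate and back, with LDHA and LDHB as its subunits. LDHB, on the minus strand of chr12:21635342-21757857, was at 555.7 and 367 CPM in DMSO and at 218.2 and 240.6 in Rib_CA. Both Rib_CA libraries were lower, at a log2 fold change of -1.01 ± 0.30 (95% interval -1.73 to -0.29; 2.01-fold lower; unadjusted p = 0.0134, adjusted p = 0.0914). LDHB's log2 fold change was -0.68 without DMSO 1 and -1.20 after the GC and length correction (adjusted p = 0.0863). LDHA was at 468.3 CPM in DMSO 1, 917.7 in DMSO 2, 502.7 in Rib_CA 1 and 465.5 in Rib_CA 2. DMSO 2 alone stood high, and the log2 fold change of -0.52 ± 0.37 (adjusted p = 0.401) became 0.045 without it. DMSO 2 is also the library in which mitochondrially encoded transcripts took 21.7% of counts, and the part of that in LDHA was not tested. LDHA made up 34.9 and 61.4% of the pair's length-scaled counts in DMSO and 59.5 and 55.2% in Rib_CA. The DMSO libraries thus differed more from each other than the groups did.

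The pyruvate dehydrogenase complex carries pyruvate carbon into the mitochondrial cycle, and PDK kinases switch it off. PDK1, the kinase that HIF-1 induces, was at 36.6 and 42.7 CPM in DMSO, 27.7 in Rib_CA 1 and 61.1 in Rib_CA 2. The Rib_CA libraries lay below and above DMSO (log2 fold change 0.16 ± 0.40; adjusted p = 0.832; -0.52 without Rib_CA 2). After the GC and length correction PDK1 stood at 1.24 (adjusted p = 0.132). Its longest transcript has 14193 bases and 39.8% GC, against medians of 3646 bases and 48.5% over all genes tested. The part of either in this shift was not tested. PDK2 was at 37.1 and 58.2 CPM in DMSO and at 33.4 and 32.3 in Rib_CA (log2 fold change -0.54 ± 0.31; adjusted p = 0.304), and 38.6% of its exonic bases overlap SAMD14 on the opposite strand. PDK3 was at 2.25 to 2.71 CPM in all 4 libraries (log2 fold change -0.22, and 0.19 after the correction). PDHA1, the catalytic alpha subunit, was at 78.8 and 71.8 CPM in DMSO and at 62.1 and 58.4 in Rib_CA, and 21.3% of its exonic bases overlap MAP3K15 on the opposite strand. PDHB, the beta subunit, was at 72.7 and 67.8 CPM and at 78.8 and 87.4. DLAT, the acetyltransferase core, was at 102.2 and 98.5 CPM and at 75.1 and 91.8. The log2 fold changes were -0.32 for PDHA1, 0.24 for PDHB and -0.27 for DLAT, and none passed (adjusted p from 0.436 to 0.564). DLAT turned to 0.12 after the GC and length correction.

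**Figure D3:**
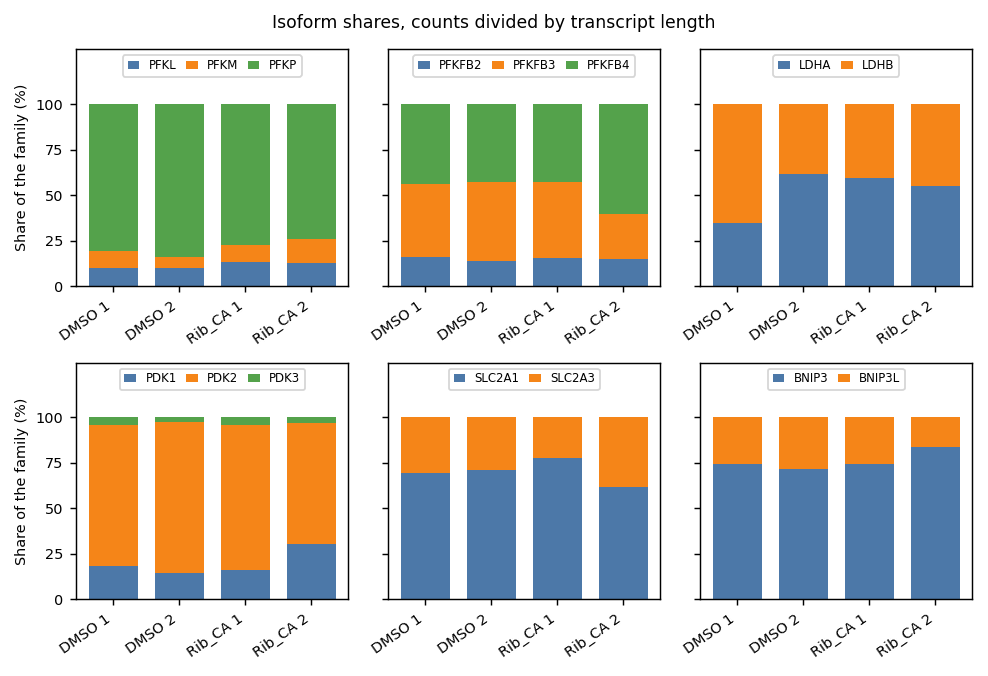
Share of each isoform in its family (% of counts divided by transcript length), stacked to 100% for each of the 4 libraries. LDHA takes 34.9% in DMSO 1 and 55.2 to 61.4% in the others, and in Rib_CA 2 PFKFB4 (60.5%) and PDK1 (30.4%) take their highest shares.

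The low-oxygen markers differed more within Rib_CA than between the groups. BNIP3, a mitophagy receptor gene, was at 254.3 and 289.5 CPM in DMSO, 200.3 in Rib_CA 1 and 547.8 in Rib_CA 2. NDRG1, a stress and differentiation gene, was at 384 and 416.7 CPM in DMSO, 361.8 in Rib_CA 1 and 766 in Rib_CA 2. For both, Rib_CA 1 lay below DMSO and Rib_CA 2 well above it. BNIP3L, the relative of BNIP3, was at 103.7 and 135.4 CPM in DMSO and at 81.3 and 124.7 in Rib_CA. None passed (adjusted p from 0.445 to 0.697), and BNIP3L went from a log2 fold change of -0.21 to one of 0.28 with the GC and length correction. Without Rib_CA 2 the log2 fold changes of BNIP3 and NDRG1 were -0.44 and -0.15. Without Rib_CA 1 they were 0.97 (adjusted p = 0.0285) and 0.89 (adjusted p = 0.0382).

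Rib_CA 2 lay at least 2-fold above Rib_CA 1 for 4 of 33 members: BNIP3 (2.74-fold), PDK1 (2.21-fold), PFKFB4 (2.17-fold) and NDRG1 (2.12-fold). That is 12.1%, against 10.1% of the 13469 genes with a count in every library, so as a share it is near the background. DMSO 2 reached 2-fold above DMSO 1 for 0 members, against 3.27% of genes. PGK1, SLC2A3 and ENO2 were 1.65-fold to 1.82-fold higher in Rib_CA 2 than in Rib_CA 1. Among 16 other hypoxia-inducible genes the level was higher in Rib_CA 2 for 15, against 50.7% of all genes, with a median ratio of 1.68 against 1.01. Of the 16, 4 (25%, against 10.1% of all genes) were at least 2-fold higher there: LOX, MXI1, INSIG2 and P4HA1, singled out after their values were seen. P4HA1, at 34.7 CPM in Rib_CA 1 and 72.1 in Rib_CA 2, still lay below both DMSO libraries (106.6 and 89.1). INSIG2 was at 6.74 CPM in Rib_CA 1 and 48.9 in Rib_CA 2, and LOX at 101.3 and 326.2. Mitochondrially encoded transcripts were at 5.78 and 3.13% of counts in Rib_CA 1 and 2, and their part in the difference between these libraries was not tested. The count of members called differed with the library left out: leaving out Rib_CA 1 gave 8 members of 34 (23.5%), all higher, and leaving out Rib_CA 2 gave 2 of 33 (6.06%), SLC16A3 as higher and LDHB as lower. Calls over all genes also rose in these fits, to 20.5% without Rib_CA 1 (8.84% higher and 11.7% lower) and to 19.8% without Rib_CA 2 (8.22% higher and 11.6% lower). Leaving out DMSO 1 or DMSO 2 gave 0 members, against 1.23 and 2.91% of all genes. The 8 called without Rib_CA 1 were SLC2A3, PFKM, PFKFB4, PGK1, ENO2, SLC16A3, BNIP3 and NDRG1.

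**Figure D4:**
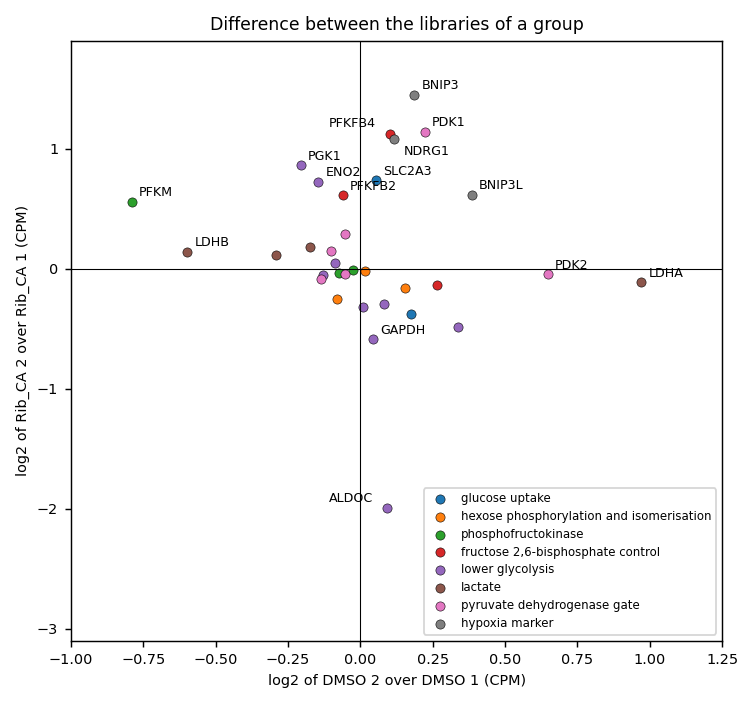
Each point is 1 tested member, with the log2 ratio of DMSO 2 over DMSO 1 on the horizontal axis and of Rib_CA 2 over Rib_CA 1 on the vertical axis. BNIP3, PDK1, PFKFB4 and NDRG1 lie above 1 on the vertical axis, ALDOC near -2, and LDHA lies farthest right.

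Promoter windows show which of these genes carry the core of the HIF-1 binding motif near a start site. RefSeq windows on GRCh38.p14, from 250 bases before to 50 after a start, were found for 29 of 34 members, 57 windows in all. ACGTG, on either strand, stood in 24 of the 57 (42.1%) and in 21.4% of all 35116 windows. The other form of the core, GCGTG, stood in 43.9% of member windows and 36.5% of all. CACGTG, the E-box that MYC and its relatives bind, contains ACGTG on both strands and stood in 15.8% and 7.26%. Several windows of 1 gene overlap, so windows are not independent, and a match is a description of the letters only. The 4 windows below set PGK1 and BNIP3, which stood high in Rib_CA 2, beside the LDH pair, with ACGTG and its reverse complement in capitals. Among other genes higher in Rib_CA 2, PFKFB4 has 0 ACGTG in its 1 window and ENO2 has 1. PDK1 has 0 and 2 in its 2 windows. The PGK1 window lies on the plus strand of chrX:78103998-78104297, that of BNIP3 on the minus strand of chr10:131981874-131982173, that of LDHA (the first of 2) on the plus strand of chr11:18394313-18394612 and that of LDHB on the minus strand of chr12:21657793-21658092.
PGK1: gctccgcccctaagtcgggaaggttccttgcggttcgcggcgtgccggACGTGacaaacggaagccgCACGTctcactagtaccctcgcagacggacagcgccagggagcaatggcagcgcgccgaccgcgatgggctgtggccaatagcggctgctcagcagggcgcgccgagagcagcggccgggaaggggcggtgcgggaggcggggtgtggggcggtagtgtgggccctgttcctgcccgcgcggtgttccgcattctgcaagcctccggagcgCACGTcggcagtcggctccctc
BNIP3: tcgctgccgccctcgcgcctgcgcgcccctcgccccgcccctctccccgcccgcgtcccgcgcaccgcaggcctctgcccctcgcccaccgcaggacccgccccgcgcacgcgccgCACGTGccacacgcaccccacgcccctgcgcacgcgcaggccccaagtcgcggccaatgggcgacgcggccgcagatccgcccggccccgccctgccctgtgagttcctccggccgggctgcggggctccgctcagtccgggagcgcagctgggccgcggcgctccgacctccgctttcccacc
LDHA: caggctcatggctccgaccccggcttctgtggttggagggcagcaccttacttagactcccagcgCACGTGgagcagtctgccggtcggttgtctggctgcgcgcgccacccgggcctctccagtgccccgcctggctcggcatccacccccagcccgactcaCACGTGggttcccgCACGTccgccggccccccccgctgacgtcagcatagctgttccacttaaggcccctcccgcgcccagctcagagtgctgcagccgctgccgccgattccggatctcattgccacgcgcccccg
LDHB: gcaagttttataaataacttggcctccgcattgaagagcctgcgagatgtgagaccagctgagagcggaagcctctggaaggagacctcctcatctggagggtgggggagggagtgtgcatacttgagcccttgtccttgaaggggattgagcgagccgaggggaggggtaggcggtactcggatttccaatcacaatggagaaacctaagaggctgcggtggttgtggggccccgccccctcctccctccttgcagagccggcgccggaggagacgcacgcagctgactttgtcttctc
PGK1 has 3 matches, whose first bases lie at -202, -183 and 28 from the start site. BNIP3 has 1 E-box, read as 2 overlapping matches. LDHA has 5 matches, 4 of them from 2 E-boxes, and LDHB has no ACGTG. The other form, GCGTG, is not in capitals. It has 1 match each in the PGK1, LDHA and LDHB windows and 4 in that of BNIP3. Any link between these matches and the levels of the genes was not tested.

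Neighbouring pathways were read from 7 lists of 99 genes, of which 88 were tested. Of the 88, edgeR called 3 higher and 1 lower (adjusted p from 0.0285 to 0.0293), against 2.01 and 5.11% of all genes tested. The median log2 fold change of the 88 was 0.16, against 0.03 over all genes tested. SLC16A7, which encodes MCT2, a high-affinity carrier for pyruvate and lactate, fell from 13.8 and 20.4 CPM in DMSO to 1.99 and 2.77 in Rib_CA. That is 7.17-fold lower (log2 fold change -2.84 ± 0.40; adjusted p = 0.0285), and 3.72-fold after the GC and length correction. SLC16A3 and SLC16A7 thus lay on opposite sides of DMSO, each with both Rib_CA libraries apart from it. PCK2, which makes phosphoenolpyruvate in mitochondria, rose from 28.64 and 22.01 CPM to 135.7 and 81.5 (4.29-fold; adjusted p = 0.0293; 2.91-fold after correction). VEGFA, the angiogenic factor gene that HIF-1 and other stress factors induce, rose from 43.9 and 44.3 CPM to 138.5 and 219.5 (4.06-fold; adjusted p = 0.0285; 5.19-fold after correction). TXNIP, the glucose-responsive target of MondoA whose product restrains glucose uptake, rose from 172.5 and 199.5 CPM to 580.6 and 753.5 (3.59-fold; adjusted p = 0.0285; 4.17-fold after correction). After the GC and length correction none of the 4 passed (adjusted p from 0.0793 to 0.0863), and no gene of the whole table did; the corrected fold was smaller for SLC16A7 and PCK2 and larger for VEGFA and TXNIP. VEGFA and TXNIP did not pass either when 1 DMSO library was left out, nor did PCK2 without DMSO 2.

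No other gene of the 7 lists was called. Of 16 hypoxia-inducible genes tested, VEGFA was the 1 called, with a median of 0.22 for the list on the log2 scale. Of the 16, 3 had both Rib_CA libraries above both DMSO libraries (against 30.4% of all genes) and 5 had them below (against 28.4%). All 22 tricarboxylic acid cycle genes were tested, 12 with a positive and 10 with a negative fold change (median 0.05). SUCLA2, a subunit of succinyl-CoA synthetase, came closest, at 23.3 and 14.2 CPM in DMSO and 7.27 and 7.78 in Rib_CA (log2 fold change -1.32 ± 0.36; adjusted p = 0.0737). ME2, mitochondrial malic enzyme, had a log2 fold change of -0.82, and 0.07 after correction. Of 8 pentose phosphate genes, H6PD (0.92; adjusted p = 0.0810) and TALDO1, transaldolase (0.996; adjusted p = 0.0898; 0.40 after correction), had the smallest p (list median 0.38). Of 12 glycogen and hexosamine genes, PYGB, brain glycogen phosphorylase (0.87; adjusted p = 0.118), and GFPT1, which opens the hexosamine branch (0.95, or 1.93-fold; adjusted p = 0.178; 1.83, or 3.55-fold, after correction, adjusted p = 0.0793), did so (list median 0.07). Among 11 tested of 21 other isoforms and control genes, TIGAR, which lowers fructose bisphosphate, stood at -1.15 ± 0.34 on the log2 scale (adjusted p = 0.0888). SLC2A6, a lysosomal hexose transporter, stood at 1.07 ± 0.36 (adjusted p = 0.114; list median 0.30). After correction the log2 fold changes of SUCLA2, H6PD, PYGB, TIGAR and SLC2A6 were -0.84, 0.996, 0.56, -0.85 and 0.58. BSG, the chaperone that carries MCT1 and MCT4 to the membrane and was singled out after its values were seen, was at 632.1 and 691.9 CPM in DMSO and at 1093 and 728 in Rib_CA (log2 fold change 0.46 ± 0.31; adjusted p = 0.376; -0.15 after correction).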

How the data were processed

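mRNA libraries of MDA-MB-231 cells were prepared with the Hieff NGS MaxUp Dual-mode kit, per the labels' protocols. What the authors deposited is a table of raw counts per gene without normalisation, judged from whole numbers with unequal totals, for 20263 human Ensembl genes. The submitters' processing notes name only mouse builds. Aligner, counter, strand use and the handling of multi-mapping reads are details not given in the sources used here. Even numbers made up 67.7 to 70.7% of the values from 1 to 10, a pattern that counting both mates of a pair gives, so depth may set less precision than the totals imply. Gene names matched for 20148 identifiers, and limits, transcript lengths and GC contents came from GENCODE release 29 (GRCh38).

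Groups and replicate numbers came from titles. The test was run with edgeR 4.0.16 in R 4.3.3 (filterByExpr, minimum count 10, minimum total 15; TMM; glmQLFit, robust; 2 residual degrees of freedom), with Benjamini-Hochberg adjustment over 13667 genes and a threshold of 0.05. Standard errors are the absolute log2 fold change over the root of F, and intervals use the fit's degrees of freedom. The fits were tested on simulated data. Alternatives were DESeq2 1.42.0, limma-voom (limma 3.58.1), other scalings and filters, a replicate block, each library left out, no mitochondrially encoded genes, and an offset smoothed in each library over transcript length and GC content (6 basis functions, mgcv 1.9.3), which can also remove real change along these properties. Members' median GC content was 52.8%, against 48.5% over all genes tested. The members and the lists were chosen with earlier results of these data known. All members are named, and of each neighbouring list the called genes or, where there were none, the 2 with the smallest p. Plots used Python 3.11.15 and matplotlib 3.10.9.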

Additional observations from a re-analysis of the deposited data

How the results depend on the processing

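The fold changes of single members rest on 2 libraries a group, whose 95% intervals often span 2-fold, and the counts may include both mates of a pair. Deviations of same-numbered libraries from their group means correlated at -0.186 over 13667 genes. With 2 libraries a group this is 1 correlation, so it cannot show whether same-numbered libraries were paired. With the replicate block edgeR called 947 genes, 0 members and 4 neighbouring genes, against 974, 0 and 4, and ALDOC turned to -0.098. With the crossed pairing, chosen after seeing the data, it called 1991 genes (14.6%), 2 members (6.06%, SLC16A3 and LDHB) and 10 neighbouring genes. ALDOC then stood at -0.095. Total-count scaling called 588 genes, 260 higher and 328 lower against 275 and 699, and moved the median of all genes from 0.034 to 0.235 and that of the members from 0.265 to 0.463, with PFKFB3 at 0.081 and BNIP3L at 0.017. DESeq2 called 2557 genes, 3 members and 15 neighbouring genes. Exactly 1 member (SLC16A3) passed with no filter on low counts (2.94%, against 8.18% of all genes). SLC16A3 was also the 1 member passing with the 5 CPM filter (3.23%, against 11.2%) and without mitochondrially encoded genes (3.03%, against 8.28%). limma-voom put ALDOC at -0.125.

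After the GC and length correction 0 genes passed, hence 0 members and 0 neighbouring genes, with 1785 higher and 1631 lower at an unadjusted p under 0.05. The members' median was 0.190, PFKP stood at -0.150, ALDOA at -0.156, ALDOC at -0.360, TPI1 at -0.039, GAPDH at -0.532, PGAM1 at -0.154, PDK3 at 0.190, DLAT at 0.122, BNIP3L at 0.276, ME2 at 0.073 and BSG at -0.150. The correction together with the replicate block called 10 genes, 0 members and 0 neighbouring genes. It gave a member median of 0.164, with PFKP at -0.155, ALDOA at -0.157, ALDOC at -0.611, TPI1 at -0.040, GAPDH at -0.542, PGAM1 at -0.151, PDK3 at 0.186, DLAT at 0.122, BNIP3L at 0.309, ME2 at 0.059 and BSG at -0.158. Why the correction moved these values was not tested.

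Leaving out each library in turn, with the spread of a group reduced to 1 library taken from the other group, edgeR called from 173 (without DMSO 1) to 2868 genes (without Rib_CA 1), from 0 to 8 members and from 1 to 18 neighbouring genes, and the member median ran from 0.189 to 0.298. The log2 fold change then changed sign in at least 1 fit for PFKFB3 (from -0.255 to 0.012), LDHA (from -0.928 to 0.045), ALDOC (from -1.147 to 0.887), GAPDH (from -0.302 to 0.329), BNIP3L (from -0.558 to 0.013), PFKFB4 (from -0.045 to 1.033), PDK1 (from -0.520 to 0.578), BNIP3 (from -0.443 to 0.965), NDRG1 (from -0.148 to 0.891), LOX (from -0.141 to 1.498), MXI1 (from -0.313 to 1.212) and INSIG2 (from -1.160 to 1.665). The other alternatives left the direction of each member as reported.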
